A study of Homo sapiens with 2 samples.

Results

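The genes described here encode glycolysis and the entry of pyruvate into mitochondria: glucose transporters, the enzymes from hexokinase to pyruvate kinase, lactate dehydrogenases and lactate transporters, the mitochondrial pyruvate carrier, the pyruvate dehydrogenase (PDH) complex with its kinases and a phosphatase, and pyruvate carboxylase. They were taken from a list of 38 genes, each through every probe set that GEO's annotation of the array assigns to that gene alone. Of the 38 genes, 36 had such a probe set, 83 probe sets in all, out of 54675 on the array. SLC16A1 and SLC16A3, which encode the lactate and pyruvate transporters MCT1 and MCT4, had none in the annotation table used and have no signal here. The 36 genes were all measured, among 12541 measured genes in the series.

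K562, a human line grown from a patient in blast crisis of chronic myeloid leukaemia, received a retrovirus carrying either the empty vector pMSCV or PML4, an isoform of the promyelocytic leukaemia protein. Both cultures were kept in G418 for 3 weeks, and the labels do not say whether either was a clone or a pool. Each group is 1 Affymetrix array, so 2 arrays were compared, there is no replicate error, and no test of a difference was possible. The design asks which transcripts differ when PML4 is overexpressed.

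Glycolysis splits glucose into pyruvate in the cytosol and yields a little ATP. Pyruvate is then either reduced to lactate and exported, or carried across the inner mitochondrial membrane, where the PDH complex turns it into acetyl-CoA and pyruvate carboxylase into oxaloacetate. PDH kinases phosphorylate the complex and switch it off, and PDH phosphatases switch it on again. Leukaemia lines growing in culture are known for strong glycolysis and lactate release.

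Of the 36 members 4 differed by at least 2-fold, here the size of a call. The 3 higher with PML4 are 8.33% of the members, beside 1.23% of all measured genes, and the 1 lower is 2.78%, beside 3.21%. Of the 4, 3 act in mitochondria, as do 13 of the 36 members. PDK4, a PDH kinase, had a signal of 2279.2 with the empty vector and 669.2 with PML4, 3.41-fold lower. The phosphatase gene PDP1 was 2.17-fold higher with PML4, MPC2, a subunit of the mitochondrial pyruvate carrier, was 2.02-fold higher, and the pyruvate kinase gene PKM was 2.21-fold higher. PDK4 was past 2-fold in every alternative that gave it a value, while PKM, PDP1 and MPC2 each fell below it in an alternative, to 0.90, 0.94 and 0.98 on the log2 scale, where 2-fold is 1. The lactate dehydrogenase genes LDHA and LDHB and the 5 subunit genes of the PDH complex all differed by less than 1.3-fold.

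To show the DNA in front of called genes, the 250 bases before the RefSeq start of PDK4, MPC2 and PKM are printed next. PDP1 had no entry among the promoter sequences used, so it is not shown and was not read for motifs. They are set beside MPC1, the other carrier gene, and LDHA, a lactate gene that differed little, both chosen after their values and matches were seen. Coordinates are those of GRCh38.p14: PDK4 at chr7:95596517-95596766, MPC1 at chr6:166382941-166383190, MPC2 at chr1:167937073-167937322 and PKM at chr15:72231191-72231440, all on the minus strand, and LDHA at chr11:18394313-18394562 on the plus strand. Each window lies upstream of the transcribed sequence, and the most upstream of the listed starts was used, of 3 for MPC2 and of 2 for LDHA. Capitals mark ACGTG, the core of a hypoxia response element, CCAAT, the CCAAT box, and GGGCGG, the GC box, on either strand.
PDK4: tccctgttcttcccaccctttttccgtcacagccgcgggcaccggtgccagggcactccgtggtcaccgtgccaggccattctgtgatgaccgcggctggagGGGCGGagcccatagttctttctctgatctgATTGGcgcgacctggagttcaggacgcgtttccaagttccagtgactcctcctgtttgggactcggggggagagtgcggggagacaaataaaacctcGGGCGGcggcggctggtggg
MPC1: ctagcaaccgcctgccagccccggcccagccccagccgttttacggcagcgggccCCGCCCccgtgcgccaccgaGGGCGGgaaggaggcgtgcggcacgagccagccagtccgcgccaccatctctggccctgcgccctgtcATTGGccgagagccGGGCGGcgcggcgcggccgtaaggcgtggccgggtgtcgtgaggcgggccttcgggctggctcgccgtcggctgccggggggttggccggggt
MPC2: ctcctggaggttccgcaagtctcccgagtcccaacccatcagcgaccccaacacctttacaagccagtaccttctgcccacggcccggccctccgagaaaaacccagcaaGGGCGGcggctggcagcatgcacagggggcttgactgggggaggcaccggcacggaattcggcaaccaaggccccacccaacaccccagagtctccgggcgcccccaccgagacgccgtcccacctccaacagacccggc
PKM: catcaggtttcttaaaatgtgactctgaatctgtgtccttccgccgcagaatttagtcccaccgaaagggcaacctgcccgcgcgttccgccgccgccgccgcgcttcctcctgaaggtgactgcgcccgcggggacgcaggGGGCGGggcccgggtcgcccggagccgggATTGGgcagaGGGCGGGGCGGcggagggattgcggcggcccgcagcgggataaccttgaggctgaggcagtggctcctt
LDHA: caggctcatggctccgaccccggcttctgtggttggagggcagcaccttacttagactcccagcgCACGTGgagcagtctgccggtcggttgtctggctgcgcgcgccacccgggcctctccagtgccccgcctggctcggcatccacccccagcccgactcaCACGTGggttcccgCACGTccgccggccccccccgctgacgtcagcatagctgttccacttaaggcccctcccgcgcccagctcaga

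The windows of PDK4, MPC1 and PKM each held 1 CCAAT box and 2, 3 and 3 GC boxes. The printed MPC2 window held 1 GC box and no CCAAT, but the window of another listed MPC2 start did hold CCAAT. None of the 4 printed windows of PDK4, MPC1, MPC2 and PKM held ACGTG. The LDHA window held ACGTG in 5 matches over both strands, because each CACGTG in it reads the same on both strands and counts for each. Of the 38 listed genes 34 had a promoter entry, SLC16A3 among them although it has no array value. For these genes 69 starts were listed, several of them overlapping. ACGTG was in 24 of these windows, or 34.8%, against 18.5% of 35116 windows of the same length. The E-box CACGTG, which contains ACGTG, was in 13.0% of member windows and 6.34% of all. The GC box was in 63.8% and 42.6%, CCAAT in 33.3% and 32.01%, and GCGTG, the other form of the hypoxia core, in 31.9% and 32.2%. GCGTG is not marked in the printed sequences. The MPC1 window held it, as did a listed window of LDHA, and no listed window of PDK4, MPC2 or PKM did. Among motifs of other factors, AAGGTCA, recognised by estrogen-related receptors, was in 3 member windows and GTGACGT, a cyclic AMP response type element, in 4. TGATGCAA, an amino acid response type element, was in 2, both of HK1, and GTAAACA, a forkhead site, in 0. In that order these are 4.35%, 5.80%, 2.90% and 0% of member windows, against 3.44%, 3.37%, 0.772% and 2.98% of all windows. These are letter matches, not sites of binding. Listed windows of LDHA, PGK1 and GAPDH held ACGTG, and those of PDK4, MPC1, MPC2 and PKM did not. Members that differed more also held it: PC, 1.65-fold higher with PML4, and PKLR, ENO2 and PFKM, 1.61-fold, 1.48-fold and 1.46-fold lower.

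The deposited values are MAS5 signals on a linear scale, with both arrays at nearly the same trimmed mean. The floor was the median over all signals of human probe sets, 72.4, and lower signals were raised to it. Differences are log2 PML4 minus log2 control vector, and each gene was read by its probe set of highest mean log2 signal. For all 36 members that probe set lay above the floor on both arrays. Of the 83 probe sets, 73 lay above it on at least 1 array and 67 on both. Probes bind with different strength, so a brighter signal for one gene than for another is not read as more transcript, and brightness is used only to describe how well a gene was read. With 1 array a group, fewer cells with a transcript and less of it per cell cannot be told apart.

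Both arrays carried transcripts known from K562. The 9 erythroid and K562 markers read here were all above the floor on both arrays, and 7 were higher and 2 lower with PML4. They summed to 51509.7 and 77707.7, mostly through HBE1, at 18103.9 and 24540.1, and TFRC, at 17625.2 and 31653.7. HBZ, at 1401.4 and 5465.5, had the largest relative difference of the 9. The lower ones were EPOR, at 760.3 and 364.8, and TAL1, at 2679.9 and 1861.8. Of 11 markers of other cell types 7 were under the floor on both arrays, among them ALB and KRT5. CD79A, EPCAM and PECAM1 were above it on both, and CD3E on the control array alone; the 11 summed to 7869.7 and 8644.0. PML itself was read by 10 probe sets that disagreed: 5 of the 7 that cleared the floor on each array were higher with PML4, by up to 7.12-fold, and 2 were lower, 206503_x_at by 5.92-fold. As a check of the labels, PML thus depends on the probe set read. The median human probe set read 80.6 with the empty vector and 64.0 with PML4, and the cause of this gap was not tested. Quantile normalization, an alternative that gives both arrays the same distribution of signals, left 2 members called higher and 1 lower.

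**Figure D1:**
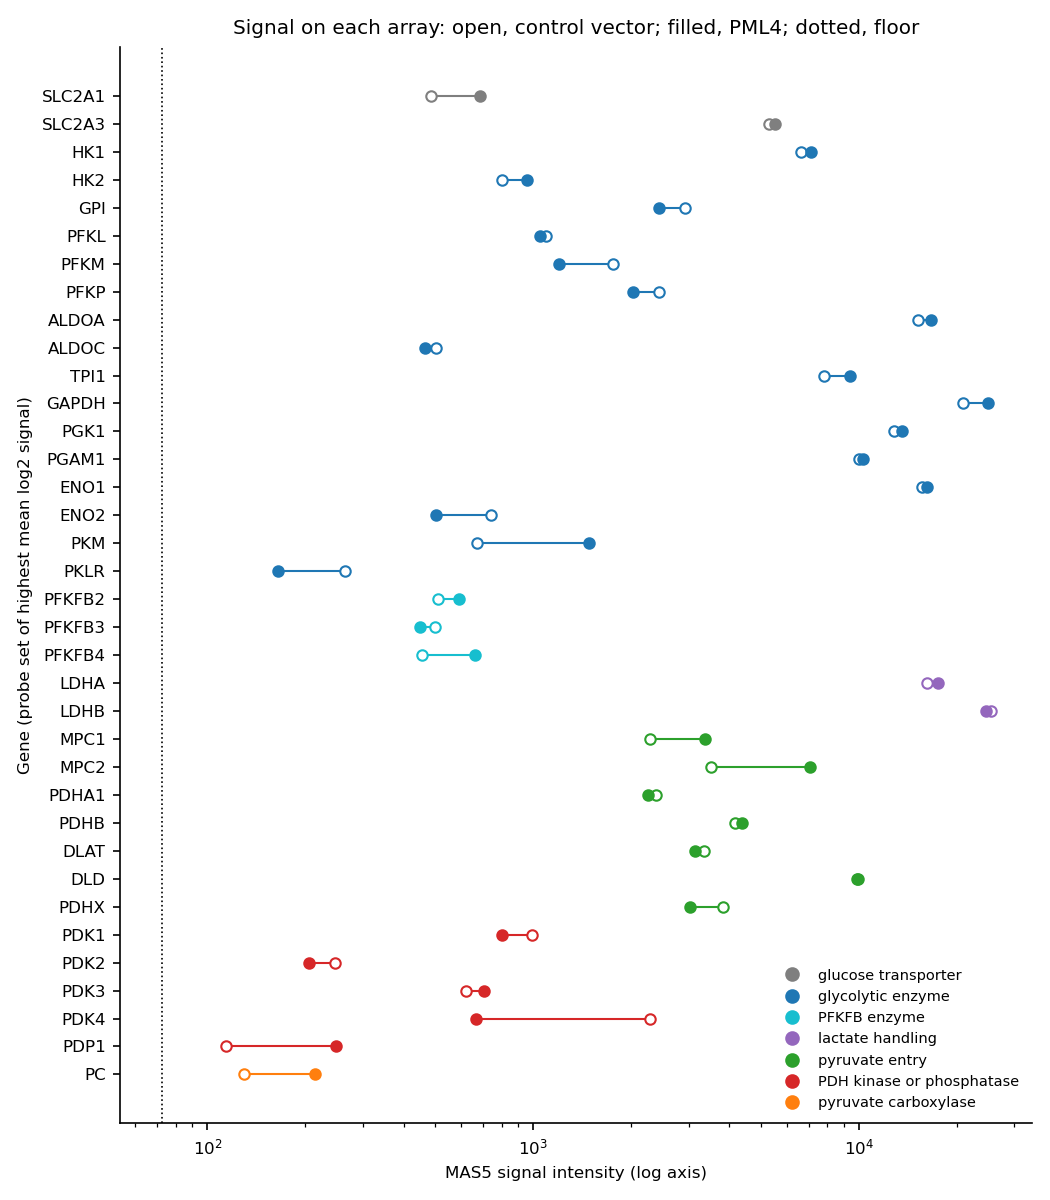
MAS5 signal of the 36 measured members on the control vector array (open circles) and the PML4 array (filled circles), on a log axis, with the gene's role by colour and the floor of 72.4 as a dotted line. The longest line joins the PDK4 signals of 2279.2 and 669.2, and the circles of DLD, at 9887.9 and 9961.1, coincide.

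Across all 36 members, 21 were higher and 15 lower with PML4, and the median difference was 0.05 on the log2 scale. Over all measured genes the median was -0.05, with 44.7% higher. At 1.5-fold the members gave 4 higher and 2 lower, 11.1% and 5.56%, beside 5.70% and 11.8% of all genes. At 2-fold the lower share rests on 1 member, 2.78% beside 3.21% of all genes, and is near the background. The lower share at 1.5-fold rests on 2 members. Scaling shifts this background: after quantile normalization 1.58% of genes were called higher and 2.26% lower, so that higher calls were 41.1% of all calls in place of 27.7%. The number of members called lower was still 1. Members with a log2 difference under 0.5 in size numbered 26 of 36, or 72.2%, against 76.7% of all genes.

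The share of genes called fell as signal rose, and many members had bright probe sets. Of the 36, 19 fell in the brightest of 4 equal bins of genes by mean log2 signal, where 0.510% of genes were called higher and 0.702% lower. In the dimmest bin, which held PDP1 and PC, the shares were 2.26% and 7.24%. MPC2 lay in the brightest bin, and 0.383% of the genes there, itself included, were as far up. For PKM, in the next bin, that share was 0.574%, and for PDP1 in the dimmest it was 1.66%. On the lower side, 0.191% of the genes in the bin of PDK4 were as far down.

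**Figure D2:**
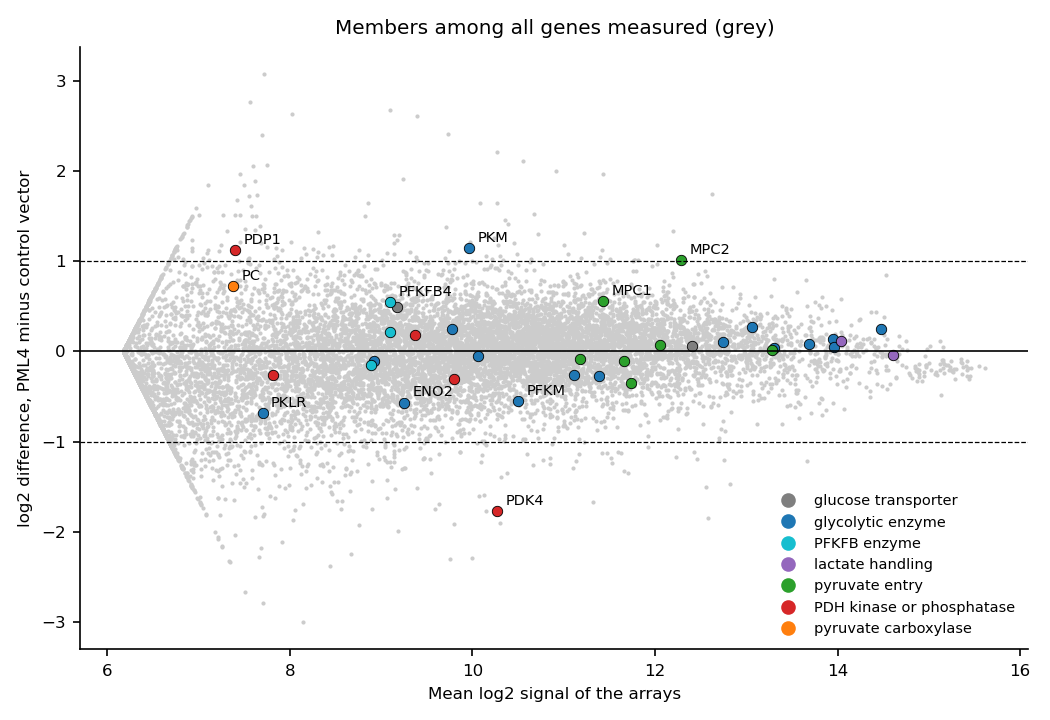
Log2 difference (PML4 minus control vector) against mean log2 signal for all 12541 measured genes (grey) and the 36 members (coloured by role), with names for members at a size of 0.5 or more. Dashed lines mark 2-fold. PKM, PDP1 and MPC2 lie on or above the upper line, PDK4 lies well below the lower one, and the brightest members lie near 0.

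Glucose enters through facilitative transporters. SLC2A1, which encodes the basal transporter GLUT1, read 487.3 with the empty vector and 687.5 with PML4, a difference of 0.50 on the log2 scale. The other one for SLC2A1 did not reach the floor. SLC2A3, the gene of the high-affinity transporter GLUT3, was at 5308.6 and 5514.9, and the remaining ones went the other way, at 2207.7 and 1801.9 and at 1899.2 and 1735.0. SLC2A3 therefore has no direction that its probe sets share. A further pair of probe sets reads SLC2A3 together with its close copy SLC2A14, and these had PML4 to control ratios of 1.12 and 0.986.

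The first steps trap glucose as a phosphate and commit it to glycolysis. HK1, the housekeeping hexokinase, was at 6642.8 and 7113.5. HK2, the inducible hexokinase, was higher in 3 of 3 probe sets, at 804.7 and 955.6, at 153.9 and 216.1, and at 152.7 and 217.7, a mean log2 difference of 0.42. HK2 was thus modestly higher throughout, by 1.19-fold in its brightest probe set and by 1.40-fold and 1.43-fold in the dimmer ones. GPI, glucose phosphate isomerase, was at 2930.6 and 2428.6, 1.21-fold lower.

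Phosphofructokinase catalyses the committed step and has liver, muscle and platelet subunits. PFKM, the muscle subunit gene, read 1756.1 with the empty vector and 1199.3 with PML4, 1.46-fold lower in its single probe set. PFKP, the platelet subunit, was at 2424.9 and 2021.5, 1.20-fold lower, and PFKL, the liver subunit, at 1092.4 and 1052.8. The second PFKL probe set was slightly higher, at 673.4 and 714.0. No phosphofructokinase gene therefore had a higher signal by more than 1.1-fold.

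The PFKFB enzymes make and break the fructose bisphosphate that activates phosphofructokinase. PFKFB4 was at 454.2 and 663.7, 1.46-fold higher, with its other probe set under the floor. PFKFB3, an isoform of strong kinase activity, was at 500.9 and 450.1. PFKFB2 was at 509.9 and 590.8 and, in a dimmer probe set, at 253.9 and 232.2. This family thus went in both directions, with a median of 0.21 over the 3 genes.

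TPI1 and GAPDH were slightly higher in each probe set that cleared the floor. TPI1, triose phosphate isomerase, was at 7799.1 and 9394.3, and a second probe set at 7415.9 and 8986.0, 1.20-fold and 1.21-fold higher. GAPDH, which couples oxidation to phosphate transfer, was higher in 3 of 3 probe sets, at 20886.8 and 24815.3, 19603.4 and 22579.7, and 18307.1 and 22324.9. The array's own GAPDH control probe sets, placed at the 3', middle and 5' parts of the transcript, had PML4 to control ratios of 1.10, 1.20 and 1.12. Together the 6 GAPDH readings were all higher with PML4, by at most 1.22-fold, and the 3' to 5' ratio, a measure of RNA integrity, was 1.55 and 1.53.

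PGK1, phosphoglycerate kinase, makes the first ATP of the pathway. The 4 PGK1 probe sets that cleared the floor on each array were all higher, the brightest at 12831.4 and 13577.5 and the furthest apart at 2333.9 and 3058.8. Another, 1558365_at, was at 87.8 and 36.9, so that it fell under the floor with PML4. PGAM1, phosphoglycerate mutase, was at 9982.4 and 10249.8. ALDOA, the main aldolase, was at 15170.4 and 16635.2, with its other probe sets at 14663.5 and 15084.1 and at 2353.5 and 2142.3. ALDOC, the brain-type aldolase, was at 502.5 and 466.0.

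Enolase genes differed by isoform. ENO1, the ubiquitous enolase, was at 15621.8 and 16216.2 and at 5590.1 and 5895.3, and lower in the dim probe set 216554_s_at, at 259.0 and 210.4. The ENO1 probe set 240258_at cleared the floor with PML4 alone, at 38.5 and 76.7. ENO2, the neuronal enolase, was at 744.6 and 502.1, 1.48-fold lower in its single probe set. Neither gene reached the size of a call.

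Pyruvate kinase ends glycolysis, and its genes differed in opposite directions. PKM, which encodes the muscle and proliferation forms, read 672.5 with the empty vector and 1487.3 with PML4. Its second probe set, 213700_s_at, was at 159.6 and 252.6, 1.58-fold higher. PKM was thus higher in both probe sets, though their mean log2 difference of 0.90 is under the size of a call. PKLR, the gene of the liver and red cell forms, was at 264.2 and 164.5, 1.61-fold lower, in the only one of its 3 probe sets above the floor. The other PKLR probe sets were at 12.8 and 5.4 and at 48.5 and 56.5, within background. These probe sets do not tell the splice forms of either gene apart.

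Over the 16 glycolytic enzyme genes, 9 were higher and 7 lower, with a median of 0.05. Of them 12 differed by less than 0.5 on the log2 scale, and the exceptions were PKM upward and PKLR, ENO2 and PFKM downward.

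**Figure D3:**
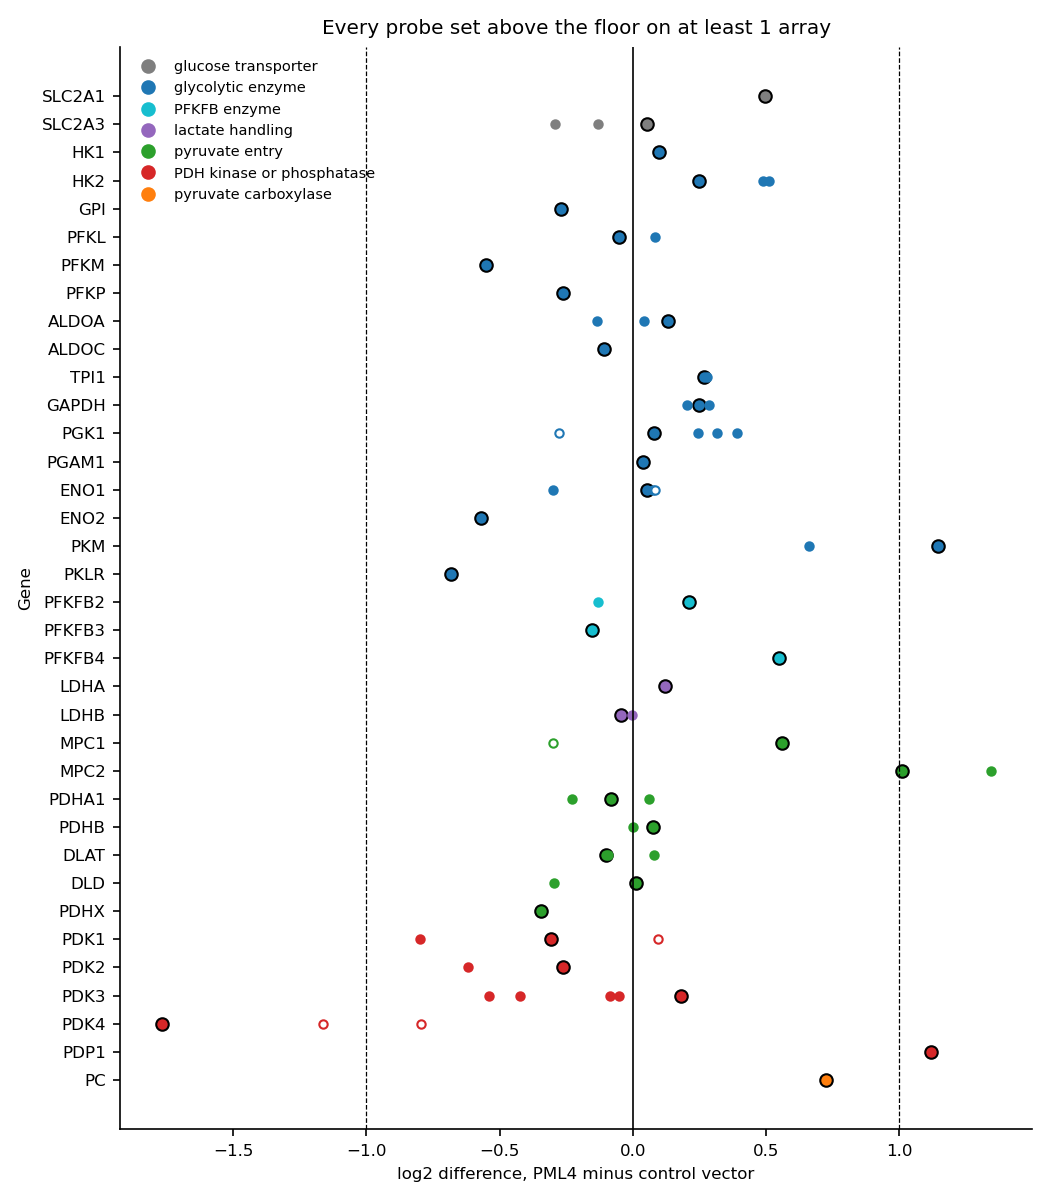
Log2 difference (PML4 minus control vector) of each of the 73 member probe sets above the floor on at least 1 array, by gene. Filled circles were above the floor on both arrays, open circles on 1 array, so their difference is a bound; a black outline marks the probe set that stands for the gene, and dashed lines mark 2-fold. All probe sets of PDK4 lie to the left of 0 and both of MPC2 and PKM to the right, while those of PDK3, SLC2A3 and DLAT straddle 0.

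The measured genes of lactate handling were close to even. LDHA, the subunit gene that favours lactate formation, was at 16118.5 and 17525.6, 1.09-fold higher. LDHB, the subunit gene that favours pyruvate, was at 25332.7 and 24564.2 and, in its second probe set, at 20688.8 and 20641.9. Neither gene thus differed by 1.1-fold in any probe set. The median of the 2 measured genes of 4 was 0.04.

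The mitochondrial pyruvate carrier is a dimer of the products of MPC1 and MPC2, and both had a higher signal with PML4. MPC2 read 3515.4 with the empty vector and 7089.3 with PML4 in 202427_s_at. Its second probe set, 227669_at, was at 358.1 and 908.3, 2.54-fold higher. Both MPC2 probe sets therefore passed 2-fold as deposited, and after quantile normalization the gene was just under it, at 0.98 on the log2 scale. MPC1 was at 2277.4 and 3356.1, 1.47-fold higher, in 218024_at. The dim 240362_at was at 89.0 and 51.1, lower and under the floor with PML4, and averaging both takes MPC1 to 0.13 on the log2 scale.

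The PDH complex receives the carried pyruvate, and its subunit genes were close to even. PDHA1, the catalytic alpha subunit gene, was at 2385.4 and 2254.4, 2326.3 and 1987.9, and 544.4 and 567.3 in its probe sets. PDHB, the beta subunit gene, was at 4155.1 and 4376.6 and at 1323.8 and 1326.0. DLAT, the acetyl transfer component, was at 3355.2 and 3128.0 in its brightest probe set and at 2386.6 and 2235.9 and 1447.1 and 1530.3 in the others. Each of these genes was even on the arrays to within 1.2-fold in every probe set.

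DLD, the lipoamide dehydrogenase shared with other complexes, was at 9887.9 and 9961.1 and, in its dimmer probe set, at 1008.1 and 822.4. PDHX, the subunit that anchors DLD, was at 3835.2 and 3018.9, 1.27-fold lower. The 5 subunit genes ran from -0.35 to 0.07 with a median of -0.08, and the 2 carrier genes were at 0.56 and 1.01. The dim MPC1 probe set was at -0.30 with its PML4 signal raised to the floor, which is only a bound. As deposited it was 1.74-fold lower. The median of 0.01 over all 7 pyruvate entry genes mixes the carrier genes with the subunit genes.

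PDK4 held the largest difference of the 36 members, and the other 4 kinase and phosphatase genes ran from -0.31 to 1.12. PDK4, the PDH kinase induced in many tissues by fasting and by fatty acids, was lower in 3 of 3 probe sets. The brightest, 225207_at, carries the values given above. The dimmer 205960_at was at 162.2 and 30.5, and 1562321_at at 125.5 and 16.6, so that both lay under the floor with PML4. Against the floor those are at least 2.24-fold and 1.73-fold lower. PDK4 kept a call in all 7 alternatives that give it a value, between -1.77 and -1.24 on the log2 scale.

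PDK1, the kinase known as a hypoxia target, was at 991.9 and 801.6, and at 148.7 and 85.6 in 239798_at, with the remaining one at 68.2 and 77.3 near the floor. PDK2, the widely expressed kinase, was at 246.7 and 205.5 and at 131.2 and 85.4. Both PDK1 and PDK2 were thus lower in each probe set that cleared the floor on each array, by 1.24-fold and 1.20-fold in the brightest ones. PDK3 was at 623.4 and 706.3 in its brightest probe set, and its other 4 were all lower, the furthest at 109.3 and 75.2. Its direction changes with the probe set, from 0.18 for the brightest to -0.18 for the mean.

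PDP1, the calcium-sensitive phosphatase that reactivates the complex, read 114.4 with the empty vector and 248.6 with PML4. The other PDP1 probe set, 218273_s_at, did not reach the floor, at 39.9 and 35.4, so the difference rests on 1 dim probe set. With a pseudocount of 32 in place of the floor PDP1 was at 0.94, and it was not measured once the floor was raised to the 75th percentile. PC, pyruvate carboxylase, which feeds oxaloacetate to the citric acid cycle, was at 129.5 and 214.1, 1.65-fold higher in a single dim probe set. Dim readings such as these are the least precise on the array.

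Agreement between probe sets of a gene is the only repeat reading here, and it shares the RNA sample. Of 19 members with several probe sets clear of the floor on each array, 10 had all of them in 1 direction, which is 52.6% beside 52.4% of 5453 genes. Over 47 pairs of member probe sets the differences lay a median of 0.19 apart, against 0.29 over 16239 pairs of all genes. Some genes were read more evenly than this, such as TPI1, at 0.27 and 0.28, and GAPDH, at 0.20, 0.25 and 0.29 in its 3 probe sets.

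Neighbouring pathways were read from 5 lists of 84 genes, of which 66 were measured. Of these, 0 were called higher and 1 lower, beside 1.23% and 3.21% of all measured genes. This count depends on the floor and the scaling. With the floor at the 25th percentile 8 of 74 measured genes were called, 1 higher and 7 lower, beside 3.79% and 11.4% of all 17590 genes then measured. Centring on the median gene and quantile normalization each gave 0, and a pseudocount of 32 in place of the floor gave 3. The tricarboxylic acid cycle list had 17 measured genes, with the cytosolic forms ACO1, IDH1 and MDH1 among them. None was called, 7 were higher and 10 lower, and the median was -0.08. IDH1, the cytosolic isocitrate dehydrogenase, was at 15756.8 and 9456.3, 1.67-fold lower in its brightest probe set and lower in 3 of 3. SDHC, a membrane subunit of succinate dehydrogenase, was at 2714.7 and 1554.5, 1.75-fold lower, but 2 of its 7 measured probe sets were higher.

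The only call was among 11 measured genes of lipoate synthesis, malate and aspartate metabolism and other PDH accessory functions, whose median was -0.43. ME1, the cytosolic malic enzyme, which turns malate back into pyruvate, was at 1008.2 and 500.2, 2.02-fold lower and lower in 2 of 2 probe sets, and it was no longer called after centring on the median gene or quantile normalization. GOT1, the cytosolic aspartate aminotransferase, was at 1637.5 and 996.1, 1.64-fold lower, and ME3, a mitochondrial malic enzyme, at 110.2 and 37.5, at least 1.52-fold lower. PDPR, the regulatory subunit of the PDH phosphatase, was at 1112.4 and 1698.6, 1.53-fold higher and higher in 3 of 3 probe sets. Further genes, under 1.5-fold and named after their values were seen, went both ways. PCK2, the mitochondrial phosphoenolpyruvate carboxykinase, was at 3481.2 and 2321.0 and LIAS, the lipoate synthase, at 1697.5 and 1199.6, while GOT2, the mitochondrial aspartate aminotransferase, was at 3860.8 and 4440.8.

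In the pentose phosphate pathway none of 10 measured genes was called, and the median was -0.13. TKTL1, a transketolase-like gene, was above the floor on the control array alone, at 125.8 and 14.0, at least 1.74-fold lower. Among 11 measured other isoforms and side branches of glycolysis none passed 1.5-fold, and their median difference came to 0.06. Lowering the floor to the 25th percentile gave this list 1 higher and 3 lower calls at 2-fold. ADPGK, an ADP-dependent glucokinase, was at 2882.4 and 3339.5, and PGM2, a phosphopentomutase, at 2330.1 and 2423.7.

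Of 17 measured regulators of glycolytic transcription none was called, and 7 were higher and 10 lower, with a median of -0.12. MXI1, a MAX partner that opposes MYC, was at 2364.2 and 1301.9, 1.82-fold lower in its single measured probe set. EGLN3, a prolyl hydroxylase that marks HIF proteins for degradation and is itself a hypoxia target, was at 127.9 and 30.7, at least 1.77-fold lower. HIF1A was at 4132.2 and 3535.9, and MYC at 14094.9 and 13954.5, both named after their values were seen. Neither of HIF1A and MYC thus differed by 1.2-fold. Other genes of this list differed more, though under 1.5-fold: ARRDC4 and TXNIP were 1.46-fold and 1.38-fold lower, and EPAS1 1.33-fold higher.

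**Figure D4:**
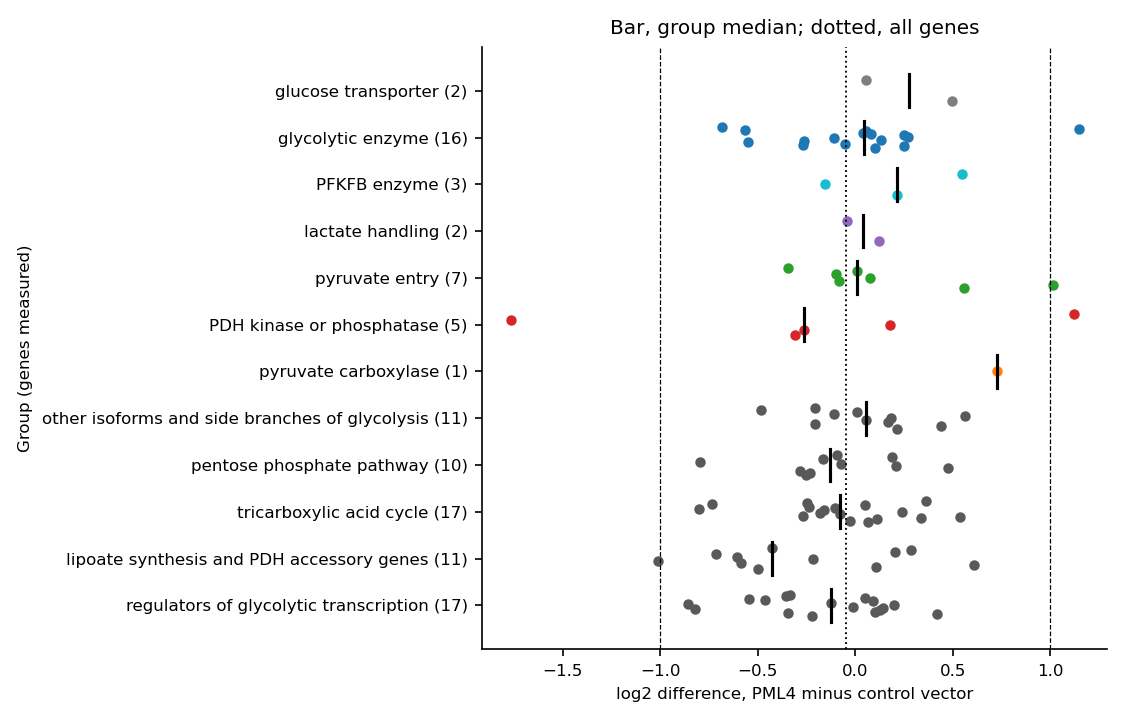
Log2 difference (PML4 minus control vector) of each measured member by role (coloured) and of each measured gene of 5 neighbouring lists (dark grey), with the number of genes in brackets. Bars are group medians, the dotted line is the median of all genes, -0.05, and dashed lines mark 2-fold. The PDH kinase and phosphatase genes spread furthest, from -1.77 to 1.12, while the lactate handling genes lie between -0.04 and 0.12.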

How the data were processed

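Total RNA of K562 cells with pMSCV or PML4 was hybridised to Affymetrix arrays, 1 per group, from 6 µg of RNA, as the labels state. Values were deposited as linear MAS5 signal intensities. A common scaling of the arrays shows in their trimmed means (2% off each end), which were 499.0 and 498.8. MAS5 is named per the submitters' processing notes, with neither version nor settings. Genes were named from GEO's platform annotation, using only the 41091 human probe sets with 1 gene, with symbols updated through RefSeq (GRCh38.p14). Of the others, 1801 name several genes and 11721 have no entry in the table used. Everything else was computed for this text with Python 3.11.15, numpy 2.4.6 and pandas 2.3.3. The calculation was checked on the control array with known fold changes put into bright genes. Those changes were all larger than 2-fold, so the check does not cover dim genes or differences near the size of a call. With 1 array per group no test was made. The number of arrays limits the precision. A call is a difference of at least 2-fold. Alternatives were a floor at the 25th or at the 75th percentile, a pseudocount of 32, scaling by quantiles or by the median gene, 2 readings of a gene's probe sets and calls at 1.5-fold. Every member is named. Of each neighbouring list, genes past 1.5-fold are named, at most 4, otherwise the 2 with the highest signal. Members, lists and motifs were chosen with earlier results of these data known, the motifs after their matches were seen. Promoter sequences are RefSeq's, GRCh38.p14, with 34 of 38 genes matched. A few of the marker genes listed for the check of the cell line are not reported here.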

Additional observations from a re-analysis of the deposited data

How the results depend on the processing

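Over the alternatives the median of the PFKFB genes ran from 0.04 to 0.38, that of the PDH kinase and phosphatase genes from -0.34 to -0.06, that of the carrier genes from 0.65 to 0.95, that of the PDH subunits from -0.12 to 0.01 and that of the glycolytic enzymes from 0.01 to 0.09. The members called higher numbered between 2 and 4 and those called lower 1, or 2 with calls at 1.5-fold. After quantile normalization MPC2 was just under a call at 0.98, with the mean of the probe sets PKM was at 0.90, and PDP1 was at 0.94 without a floor. PDK4 was called in each alternative that gave it a value. Of 36 members 29 kept their sign in every alternative, and the 7 that did not differed by at most 0.18 as reported. Among the neighbouring lists, the floor at the 25th percentile gave 1 higher and 3 lower calls for side branches of glycolysis, 1 lower for the pentose phosphate pathway, 2 lower for the lipoate and accessory genes and 1 lower for the regulators. Without a floor the pentose phosphate list and the regulators each had 1 lower call. Centring on the median gene and quantile normalization each left 0 calls among the lipoate and accessory genes. At 1.5-fold the lower counts were 1 of 10 for the pentose phosphate pathway and 2 of 17 for the tricarboxylic acid cycle list. They were 3 of 11 for the accessory genes, with 1 higher, and 2 of 17 for the regulators. At that size 5.70% of all measured genes were higher and 11.8% lower. No paired analysis was possible because each group has 1 array. Signals near the floor limit the dim genes, PDP1, PC and PKLR among them.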
